A study of Mus musculus with 2 samples.

Results

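Fibronectin and 7 matricellular glycoprotein genes were followed in 2 lines of mouse neural progenitor cells on 1 Agilent 1-colour array each. The members were all non-control probes that the array names Fn1, Thbs1, Thbs2, Tnc, Sparc, Spp1, Postn or Tgfbi. These 8 genes had 15 probes of the 41174 non-control probes on the array, in 33 of its 43379 non-control spots. All 8 encode secreted matrix glycoproteins linked to the mesenchymal state. One line was N31Pax6, which overexpressed the transcription factor Pax6 from CAG-Pax6-IP, and its control was N31EGFP, which overexpressed the fluorescent protein EGFP from CAG-EGFP-IP. CAG is a promoter active in most cell types, and both constructs entered the cells by the Tol2 transposon. Both lines derive from N31, strain 129/Ola, a progenitor line obtained from induced pluripotent stem cells (iPSC) that had been made from NSEB5-2C with the reprogramming factors Sox2, Oct3/4, c-Myc and Klf4 under the control of doxycycline. Both were taken 24 h after doxycycline, which controls the 4 factors, and no array without doxycycline was analysed here. Whether the factors were expressed alike in the 2 lines was not tested. The labels do not say whether either line is 1 clone. The study asked what Pax6 does to the switch of mesenchymal cells to epithelial ones during reprogramming. A change of cell shape had been noted at this time in the EGFP line only.

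Fibronectin is secreted as a dimer and assembled by cell-surface integrins into fibrils that carry other matrix proteins. Matricellular proteins are secreted into the same matrix but serve mainly to adjust how cells attach, spread, migrate and respond to growth factors. Several of them are targets of TGF-beta signalling, and their production by mesenchymal cells and fibroblasts is well known. In the nervous system tenascin-C is made by radial glia and astrocytes, and thrombospondins from astrocytes promote synapse formation.

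Values are relative signals, the background-subtracted processed signal divided by the 75th percentile of its own array, which was a signal of 991 on the Pax6 array and 854 on the EGFP array. Differences are log2, Pax6 minus EGFP, and the value after ± is the scanner software's measurement error. For bright probes this error is close to a fixed share of the signal, as for Sparc (4229 of 42290 on the Pax6 array). Most differences therefore carry about the same error, with a median of 0.20. A multiple of the error then mostly restates the size of the difference. A gene with several probes is represented by its brightest. Higher and lower describe these arrays only. Since each line has a single array, no difference was checked on replicates or tested, and the error leaves out how far cultures of a line differ. Well above background were 67.2% of non-control spots on the Pax6 array and 64.7% on the EGFP array, and 0 spots were saturated. Between the arrays, 8 spike-in controls had differences of -0.05 to 0.08. Both arrays were on 1 slide and in 1 scan, which the lines therefore share. Levels are not compared between genes, since probe brightness is not a measure of transcript number. In these bulk samples fewer cells of a type and less RNA per cell cannot be told apart. Probe coordinates are on mouse build mm7 as the array design gives them, and a probe whose span exceeds the usual 60 bases was laid over separate stretches of the genome.

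The upstream windows of 3 members are shown because these genes differed in opposite directions, Postn and Spp1 being higher and Tnc lower on the Pax6 array. Each line gives the 250 bases before the most upstream RefSeq transcription start of the gene, read 5′ to 3′. Capitals mark the 6 motifs searched for, each on both strands. The general promoter motifs were TATAAA, the letters of the TATA box, and the site of Sp1 and Klf factors, written GGGCGG. The site of AP-1 factors was searched as TGANTCA. The E-box that Zeb and Snail repressors bind was searched as CACCTG. Sox factors were represented by CATTGT. Oct factors were represented by ATGCAAA, a part of the octamer.
Postn (GRCm38.p6, chr3:54359017-54359266, plus strand): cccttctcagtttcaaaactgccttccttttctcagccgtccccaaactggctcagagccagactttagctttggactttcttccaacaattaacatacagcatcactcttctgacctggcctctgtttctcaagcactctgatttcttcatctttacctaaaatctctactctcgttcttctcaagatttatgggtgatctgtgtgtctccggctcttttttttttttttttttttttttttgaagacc
Spp1 (GRCm38.p6, chr5:104434861-104435110, plus strand): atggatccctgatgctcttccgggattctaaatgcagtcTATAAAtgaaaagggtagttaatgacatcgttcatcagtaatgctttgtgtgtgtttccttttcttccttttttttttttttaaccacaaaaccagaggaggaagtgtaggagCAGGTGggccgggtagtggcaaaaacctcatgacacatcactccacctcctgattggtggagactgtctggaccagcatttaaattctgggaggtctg
Tnc (GRCm38.p6, chr4:64047016-64047265, minus strand): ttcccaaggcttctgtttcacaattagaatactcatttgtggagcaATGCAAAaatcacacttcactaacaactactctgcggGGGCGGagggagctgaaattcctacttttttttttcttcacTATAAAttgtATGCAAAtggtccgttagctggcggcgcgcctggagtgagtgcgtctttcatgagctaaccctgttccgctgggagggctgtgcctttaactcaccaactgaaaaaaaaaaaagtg
The Tnc window held ATGCAAA at 204 and at 116 bases before the start, beside a TATAAA 126 bases and a GGGCGG 167 bases before it. ATGCAAA was found in 4.1% of all 32851 promoter windows of this length, TATAAA in 12.4% and GGGCGG in 32.7%. The Spp1 window held TATAAA 211 bases before the start and CAGGTG, the other strand of CACCTG, 98 bases before it. CACCTG was found in 17.2% of the windows. The Postn window held none of the 6 motifs. No window was available here for Fn1 or for Thbs1, the member that differed most. Of the 6 members with a RefSeq window, Thbs2 had TATAAA on the other strand, Tgfbi had GGGCGG, and Sparc had none of them. TGANTCA (6.7% of all windows) and CATTGT (3512 of the 32851) were in none of the 6. A match only says that the letters are present, and no motif overlapped another.

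Thbs1 differed most among the 8 genes and was higher on the Pax6 array. It encodes thrombospondin-1, a trimeric glycoprotein that binds CD36, CD47 and integrins and can activate latent TGF-beta. Its brightest probe, at chr2:117866887-117866946 (mm7), read 0.727 ± 0.073 on the Pax6 array, against 0.165 ± 0.017 on the EGFP array. The log2 difference was 2.14 ± 0.21, or 4.41-fold, which is 10.4 times its error. Thbs1 has a probe 3385 bases further 5′ (chr2:117863442-117863501), which read 0.057 ± 0.006 on the Pax6 array and 0.018 ± 0.003 on the EGFP array. That probe differed by 1.64 ± 0.30, or 3.12-fold. The probe nearest the 5′ end (chr2:117861824-117862004) read 0.035 on the Pax6 array and 0.011 on the EGFP array, which is not well above background, so it was at least 2.89-fold higher. For this bound the dim side was set to the lowest signal that counts as well above background on its array, or to the probe's own value where that is larger. All 3 Thbs1 probes, placed between bases 117861824 and 117866946 of chr2, thus lay on the same side and past 2-fold. Only 70 of the 19243 genes above background on at least 1 array had a larger difference toward the Pax6 array.

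Past the 2-fold rule lay 1 of the 8 members on the higher side, Thbs1, and 0 on the lower side. Over the 19243 genes used, 2.35% passed it on the higher side and 2.37% on the lower side, or 4.72% on either. A count of 1 among 8 genes is too small to set apart from these shares. Of the 908 genes past 2-fold, 49.8% were higher (452 higher and 456 lower), and the share was 62.0% (176 higher and 108 lower) with normexp background correction and quantile normalization. That correction adds an offset of 50 to every signal, which by arithmetic draws the differences of dim probes toward 0. The members' median difference was 0.33, with 5 above 0 and 3 below, against a median of -0.01 over all genes used.

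**Figure D1:**
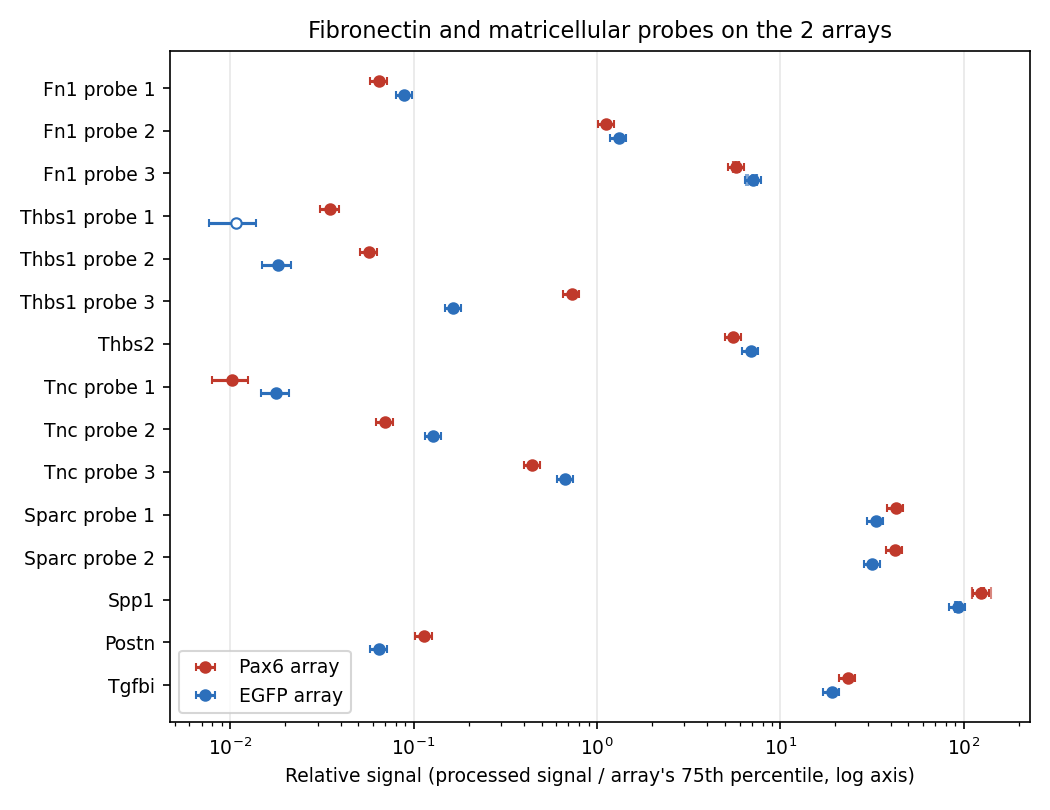
Relative signal of each of the 15 probes (log axis), with the Pax6 array in red above the EGFP array in blue. Points are means of a probe's spots, bars the measurement error, small ticks single spots where a probe has several, and the open point a probe not well above background. Probes of a gene are numbered from 5′ to 3′. The 3 Thbs1 probes show the widest gaps between the arrays.

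Thbs2, the gene of the closely related thrombospondin-2, did not follow Thbs1. It read 5.55 ± 0.55 on the Pax6 array and 6.90 ± 0.69 on the EGFP array at its single probe, which spans chr17:12950083-12951346. The difference was -0.31 ± 0.20, or 1.24-fold lower, at 1.5 times its error. Thbs1 and Thbs2 therefore differed in opposite directions on these arrays, Thbs2 by less than 2-fold.

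Fn1, the fibronectin gene, was slightly lower on the Pax6 array at all 3 of its probes. The brightest, which spans chr1:71832689-71834926, was printed as replicate spots, of which 9 were kept after 1 outlier spot was left out. Its spots lay between 5.49 and 5.95 on the Pax6 array, with a median of 5.71, and between 6.52 and 7.47 on the EGFP array, with a median of 7.16. The 9 spots of the Pax6 array were all below the 9 of the EGFP array, but spots of an array share 1 RNA and are no replicates of the line. The Fn1 difference was -0.31 ± 0.20, or 1.24-fold lower, with an SD of 0.093 over spots. The middle probe (chr1:71839394-71839453) read 1.12 on the Pax6 array and 1.31 on the EGFP array and differed by -0.22 ± 0.20. The 5′ probe, 29701 bases from the middle one and spanning chr1:71869155-71869913, read 0.065 on the Pax6 array and 0.089 on the EGFP array and differed by -0.45 ± 0.21. The 3 Fn1 values thus shared a sign, with sizes between 1.17-fold and 1.37-fold.

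Tnc, the gene of the hexameric glycoprotein tenascin-C, was the member with the largest difference toward the EGFP array. Its brightest probe (chr4:63394034-63394094) read 0.445 ± 0.045 on the Pax6 array, against 0.670 ± 0.067 on the EGFP array. The difference was -0.59 ± 0.20, or 1.51-fold lower, at 2.9 times its error. The next probe in the 5′ direction (chr4:63418540-63418599) read 0.070 on the Pax6 array and 0.129 on the EGFP array, a difference of -0.88 ± 0.21 or 1.84-fold. The array names this probe Tnc but ties it to a different transcript record than the other Tnc probes. The third, spanning chr4:63446910-63447673, read 0.010 on the Pax6 array and 0.018 on the EGFP array and differed by -0.80 ± 0.41. Every Tnc probe was lower on the Pax6 array, and none by 2-fold. Of the 19243 genes, 1436 had a difference further toward the EGFP array than Tnc.

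**Figure D2:**
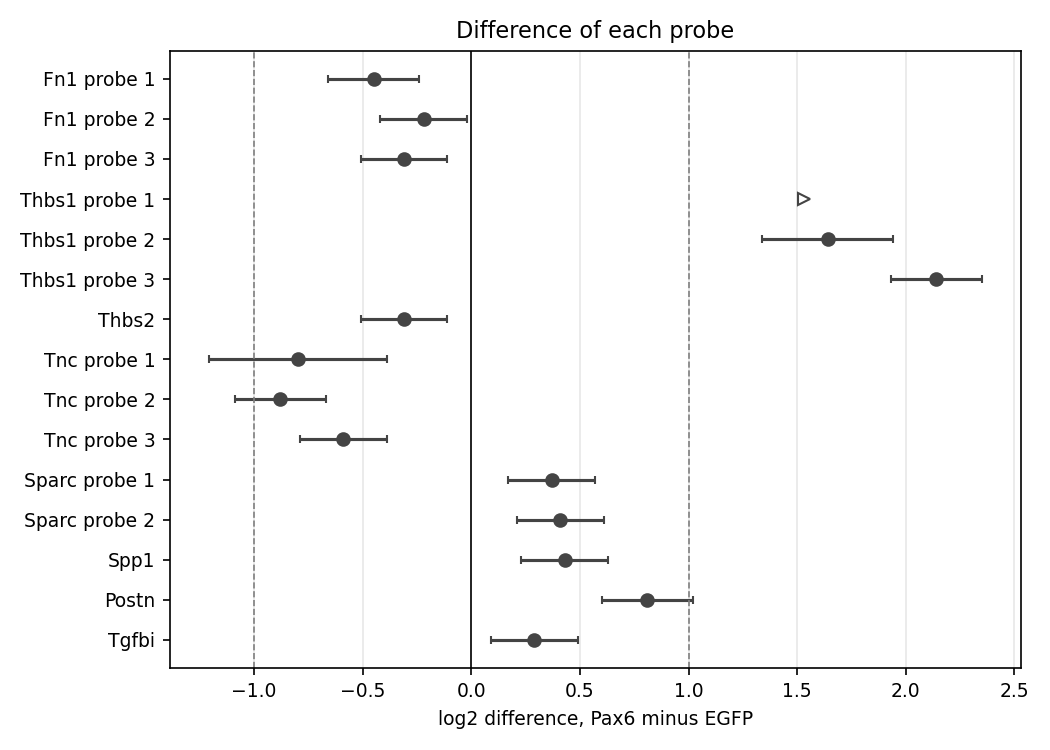
Log2 difference, Pax6 minus EGFP, of each of the 15 probes, with the measurement error as bars. The open triangle is the lower bound of the 5′ Thbs1 probe and dashed lines mark 2-fold. The Thbs1 probes lie past 2-fold, and the Fn1 and Tnc probes all lie below 0.

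Sparc, Spp1, Postn and Tgfbi were all above 0, each within 2-fold. Sparc encodes osteonectin, which binds collagen and counters cell spreading. Its brightest probe, spanning chr11:55352704-55355361, read 42.7 ± 4.3 on the Pax6 array and 33.1 ± 3.3 on the EGFP array, a difference of 0.37 ± 0.20. The second Sparc probe (chr11:55351268-55351327) read 42.1 on the Pax6 array and 31.7 on the EGFP array and differed by 0.41 ± 0.20, so both Sparc probes gave about 1.3-fold (1.29 and 1.33).

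Spp1 encodes osteopontin, a phosphorylated integrin and CD44 ligand of bone, macrophages and remodelling tissue. Its single probe (chr5:103631152-103631211) had 10 spots per array. They lay between 111 and 140 on the Pax6 array, with a median of 127, and between 89.8 and 96.7 on the EGFP array, with a median of 92.1. No Spp1 spot of the Pax6 array was as low as any on the EGFP array. The difference was 0.43 ± 0.20, or 1.35-fold higher, with an SD of 0.088 over spots.

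Postn encodes periostin, a fasciclin-domain protein of periosteum and connective tissue that supports collagen assembly. It read 0.114 ± 0.012 on the Pax6 array and 0.065 ± 0.007 on the EGFP array (chr3:54519770-54519829). The difference of 0.81 ± 0.21, or 1.75-fold higher, was 3.8 times its error. Tgfbi encodes a fasciclin-domain protein related to periostin and induced by TGF-beta. It read 23.3 ± 2.3 on the Pax6 array and 19.1 ± 1.9 on the EGFP array (chr13:55730801-55730860), a difference of 0.29 ± 0.20 or 1.22-fold higher. Both fasciclin-domain genes were thus above 0, with Tgfbi at 1.4 times its error.

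In order of difference the members ran Thbs1, Postn, Spp1, Sparc, Tgfbi, Fn1, Thbs2 and Tnc. Spp1, Sparc and Tgfbi, at 0.43, 0.37 and 0.29, were closer to each other than their error of 0.20, as were Fn1 and Thbs2, both at -0.31. Thbs1 was separated from Postn, and Postn from Spp1, by more than that error. It is the error of 1 difference, however, and a gap between 2 genes carries the errors of both. Postn and Spp1 lay closer together with normexp (0.46 and 0.32) and with median-based net signal (0.56 and 0.43). Among all genes used the differences of Postn, Spp1, Sparc and Tgfbi stood at percentiles 96.6, 91.1, 89.1 and 85.9, and those of Fn1, Thbs2 and Tnc at 17.8, 17.5 and 7.5.

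**Figure D3:**
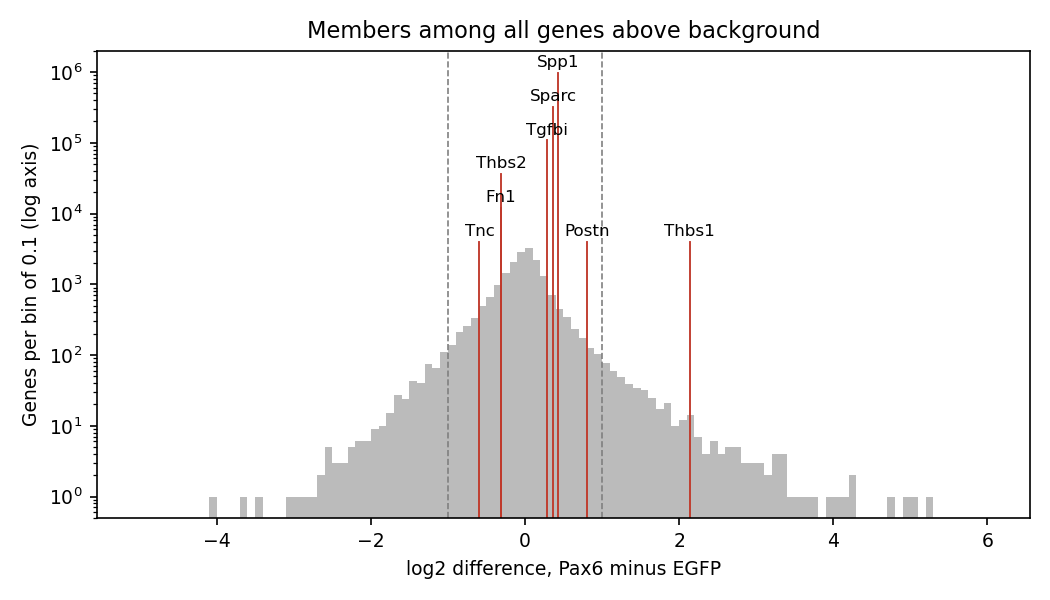
Distribution of the log2 difference, Pax6 minus EGFP, over the 19243 genes used (grey, log count axis), with each member as a red line whose height carries no value. Dashed lines mark 2-fold. Thbs1 at 2.14 lies past the upper line and the other 7 members lie between the lines.

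With 2 arrays a gene's pattern is only 1 difference at 1 mean level. By that measure the genes most like Thbs1, taken from those above background on both arrays whose probe had a mean log2 brightness within 1 of the Thbs1 probe's, were Igf2r, Rimbp2 and Hmcn1. The limit on brightness picks probes of like signal and says nothing of transcript number. Igf2r read 0.529 on the Pax6 array and 0.122 on the EGFP array and differed by 2.11. Rimbp2 and Hmcn1 both differed by 2.05.

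Other genes of the matricellular families showed no common direction. Of 23 listed genes, 22 had a probe and 12 were above background on at least 1 array. Past 2-fold lay 1 of the 12 on the higher side and 1 on the lower, and their median difference was 0.03. Ccn3, a regulator of the CCN family, read 0.166 on the Pax6 array and 0.068 on the EGFP array, 2.45-fold higher (1.29 ± 0.22), but differed by 0.82 with normexp background correction. Spock3, a proteoglycan related to Sparc, did not pass the background limit on the Pax6 array and was at least 2.40-fold lower there, but differed by -0.25 with normexp background correction. The relatives Thbs4, Tnr, Tnxb and Tnn passed the background limit on neither array, and Thbs3 differed by -0.16 and Comp by -0.69.

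The receptors of these proteins differed little. All 20 listed genes had a probe and 19 were above background on at least 1 array. Of the 19, 0 passed 2-fold on either side, 14 were above 0, 3 below 0, 2 were bounds of 0, and the median was 0.08. The fibronectin receptor subunits Itga5 and Itgb1 differed by 0.39 and 0.05. Itga8, whose integrin binds fibronectin, tenascin-C and osteopontin, was the furthest from 0 at 0.83 ± 0.20. For thrombospondin-1, Cd47 differed by 0.46, while Cd36 passed the background limit on the Pax6 array alone, too narrowly to give a fold. Cd44 differed by 0.06.

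Genes of matrix assembly and turnover had a median difference of 0.21 over 15 genes used of 16 listed. Plau, the gene of urokinase plasminogen activator, was 2.25-fold higher on the Pax6 array (2.28 on the Pax6 array and 1.01 on the EGFP array, 1.17 ± 0.20). Loxl2, a collagen cross-linking enzyme gene, was 2.10-fold lower (-1.07 ± 0.20), and lay at -0.99 after scaling by the median. The other 13 lay within 2-fold, among them the fibronectin cross-linking enzyme gene Tgm2 at -0.69.

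All 18 listed genes of the TGF-beta pathway were used, 0 past 2-fold on the higher side and 1 on the lower, with a median of 0.07. The lower one was Ltbp2, a latent TGF-beta binding protein family gene (-1.03 ± 0.32), which lay within 2-fold under 5 of 11 alternatives. The ligand gene Tgfb1 differed by 0.77 ± 0.20, below 2-fold, and the ligand genes Tgfb2 and Tgfb3 by -0.23 and 0.43. Over the 18 genes, 12 were above 0 and 6 below.

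Of 11 regulators and markers of the transition, 1 passed 2-fold on the higher side and 3 on the lower, with a median of 0.06. Zeb1, a repressor of epithelial genes, was 2.04-fold higher. Twist2, Cdh1 (E-cadherin) and Epcam were 16.1-fold, 10.6-fold and 3.90-fold lower, and differed by -2.40, -2.53 and -1.30 with normexp background correction. The mesenchymal genes Cdh2, Vim and Prrx1 differed by 0.28, 0.13 and 0.16. The regulators Twist1, Snai1, Zeb2 and Snai2 differed by 0.26, 0.06, 0.01 and -0.22. Twist2, also a regulator, lay furthest from 0 of the 11 genes, on the lower side.

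**Figure D4:**
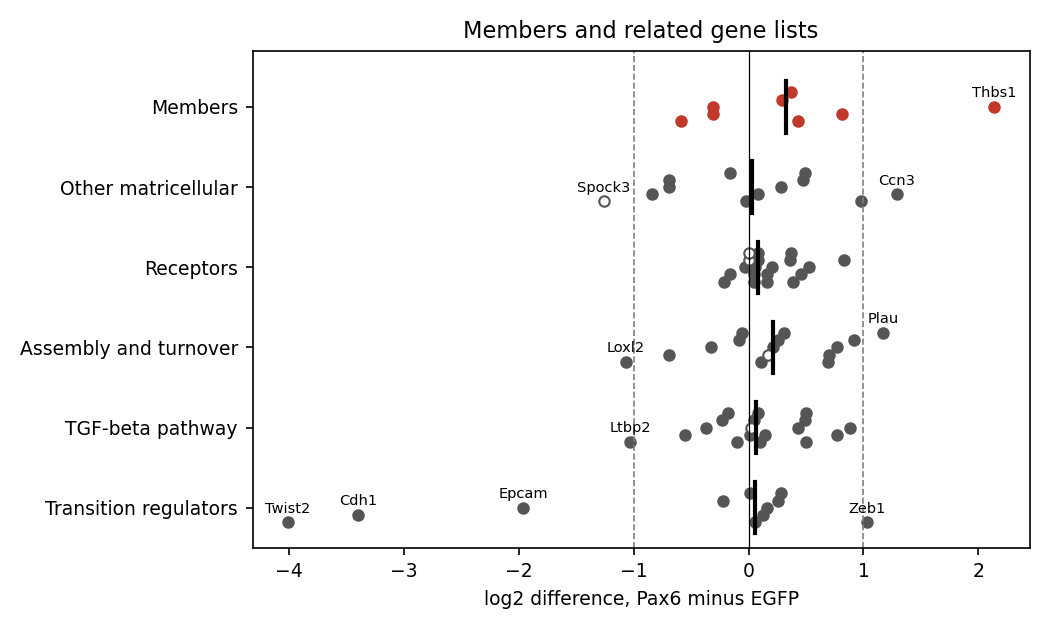
Log2 difference, Pax6 minus EGFP, of the 8 members (red) and of 5 related gene lists (grey), with list medians as black bars, lower bounds as open points and 2-fold as dashed lines. Genes past 2-fold are named. The members' median is 0.33 and those of the other lists lie between 0.03 and 0.21.

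Cell type markers were read beside these values. The label of neural progenitor cells was set beside 12 markers, all above background on at least 1 array. All 9 fibroblast, 5 mural, 4 astrocyte and 5 pluripotent cell markers were as well, so passing this limit does not check the label. Sox1 (0.019 on the Pax6 array and 0.022 on the EGFP array) and Fabp7 (0.020 and 0.014) were dim. Of the 12, 1 passed 2-fold on the higher side (Sox2) and 2 on the lower (Slc1a3 and Nes, by 12.9-fold and 3.17-fold). The targeted gene Pax6 read 0.829 on the Pax6 array and 0.652 on the EGFP array at its brightest probe, a difference of 0.35 ± 0.20. The labels do not say whether that probe reads the transgene, so it does not check the labels on which each direction depends. Of 9 fibroblast markers, all used, 4 passed 2-fold on the higher side and 3 on the lower, 5 were above 0 and 4 below, and the median was 0.28. Their summed relative signal was 63.3 on the Pax6 array and 111 on the EGFP array. Such a sum adds probes of different brightness, and most of this one was Col1a2, which read 46.9 on the Pax6 array and 106 on the EGFP array. Fap was at least 19.2-fold higher, Dcn 7.71-fold higher and Col1a1 5.03-fold lower. The values of Fap, Col1a1 and Slc1a3 were 1.92, -1.70 and -2.18 with normexp background correction. Of 7 macrophage and microglia markers, which bear on Spp1, Cd68 alone was above background, at -0.52, and their summed relative signal was 0.318 on the Pax6 array and 0.433 on the EGFP array. Of 5 endothelial markers 2 were used and 0 passed 2-fold, and their sum was 0.043 on both arrays, with Pecam1, Cdh5 and Tie1 not well above background on either. The 5 mural markers summed to 19.6 on the Pax6 array and 22.2 on the EGFP array, with Tagln 3.36-fold lower. Astrocyte markers summed to 0.801 on the Pax6 array and 0.487 on the EGFP array, most of it from Aldh1l1, which read 0.681 on the Pax6 array and 0.432 on the EGFP array. Of the 4, Aldh1l1 and S100b differed by 0.66 and 0.60, Gfap passed the background limit too narrowly to give a fold, and Aqp4 was at least 3.86-fold higher, but at 0.50 with normexp background correction. The 5 pluripotent cell markers summed to 0.358 on the Pax6 array and 0.479 on the EGFP array. Of these, 0 passed 2-fold on the higher side and 1 on the lower, Zfp42 at 2.81-fold (-0.81 with normexp background correction). Among the reprogramming factors on these lists, Sox2 read 0.310 on the Pax6 array and 0.093 on the EGFP array. Pou5f1, the gene of Oct3/4, read 0.0144 on the Pax6 array and 0.00935 on the EGFP array, where it did not pass the background limit. The labels do not say whether these probes read the doxycycline-controlled factors. The part of fibroblast-like or astrocyte-like cells in the members' values was not tested.

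**Figure D5:**
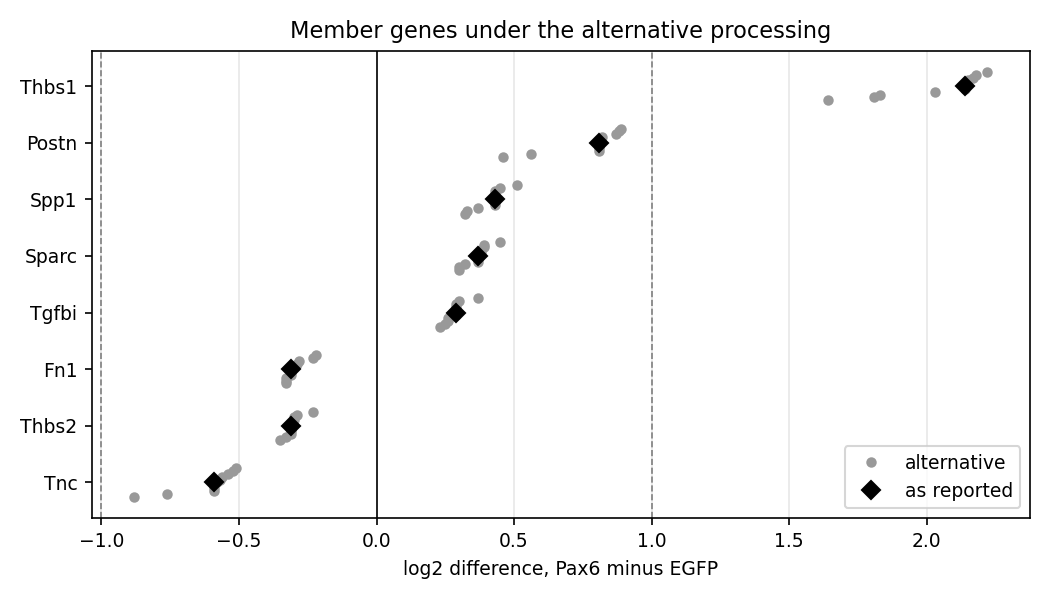
Log2 difference, Pax6 minus EGFP, of each member gene as reported (black diamonds) and under 11 alternative ways of processing (grey points). Dashed lines mark 2-fold. Each gene keeps its side of 0, and Thbs1, between 1.64 and 2.22, stays past 2-fold. The series table and the filters on background could not move any member.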

How the data were processed

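Per the labels' protocols, total RNA of the 2 lines was amplified linearly and labelled with Cy3. Per the file headers, the authors used Agilent Feature Extraction 10.7.3.1, which subtracts background and removes trends across an array. The deposited intensity values are its processed signals, with no normalization between arrays. The deposited flags (unit other) mark spots well above background, by 13.0 of its SDs, saturated or outlying, per the file headers. The deposited series table holds the same intensities, with a largest difference of 0.0.

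Spots that are outliers on either array were dropped, leaving 43283 spots of 41168 probes. The log2 processed signal minus the array's 75th percentile was averaged over spots. Accessions gave RefSeq symbols (GRCm38.p6) for 22951 probes, and other probes kept the array's name. A gene took its brightest probe, and 19243 genes whose probe passed the background limit on either array were used, 1412 of them as bounds. The lowest signals well above background were 9.63 on the Pax6 array and 10.4 on the EGFP array. Probe coordinates are the array design's, on mm7, whose exons were not annotated here. Genes were counted by a rule of 2-fold, without a test, since 1 array per group allows none. The number of arrays limits the precision. The median error of a difference was 0.20, and the median SD over replicate spots 0.08.

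The members and lists were chosen with earlier results of these data known. Named genes were the 8 members, up to 4 per direction at least 2-fold different from each of 5 related lists, up to 3 from each of 7 marker lists, and the 3 genes most like the member with the largest difference. Other genes were named as examples after their values were seen. There were 13 alternatives: scaling by the median, by spike-ins, by quantiles or by cyclic loess, normexp (offset 50) with quantiles, the series table, median-based net signal, mean or median of probes, 2 filters and 2 rules of size. Work was done in Python 3.11.15 with numpy 2.4.6 and pandas 2.3.3 and in R 4.3.3 with limma 3.58.1. The steps were tested on simulated data in which only bright genes were changed, all by more than 2-fold. Dim probes and smaller differences, such as those of most members, were not covered.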

Additional observations from a re-analysis of the deposited data

How the results depend on the processing

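Under all 13 alternatives 1 member, Thbs1, was past the rule of size toward the Pax6 array and 0 members were past it the other way. Not every alternative could move a member. The series table holds the same intensities, and the 2 filters spare all 8 genes, which were above background on both arrays. For Postn, Spp1, Thbs2 and Tgfbi, with a single probe, the mean and median of probes change nothing. Scaling by the median or by spike-ins shifts all measured genes alike, by 0.08 and 0.02. The members' median lay between 0.27 and 0.41 over 11 alternatives, and all 8 kept their sign. Values that moved by at least their error were few. Thbs1 differed by 1.83 with the mean of its probes, 1.64 with their median and 1.81 with normexp. Postn differed by 0.46 with normexp and 0.56 with median-based net signal. Tnc differed by -0.88 with the median of its probes. Normexp adds an offset of 50 to every signal, which by arithmetic draws the differences of dim probes toward 0. Beyond that, and the use of other probes in the mean and median, the cause was not tested.

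Counts over all genes were 165 higher and 101 lower at 3-fold, 1307 higher and 1232 lower with no filter on dim probes, 176 higher and 108 lower with normexp, and 277 lower with median-based net signal, against 452 higher and 456 lower as reported. In the other matricellular list the higher count was 2 after scaling by the median and 0 with normexp or at 3-fold. The lower count there was 2 without a filter and 0 with normexp, median-based net signal, a filter on both arrays or 3-fold. In the assembly and turnover list the counts were 0 in each direction at 3-fold, and 2 higher and 0 lower after scaling by the median. The 1 lower gene of the TGF-beta list was lost (0) at 3-fold and with median, quantile, loess, normexp and median-based net signal settings. The receptor list had 1 higher gene without a filter, and the list of the transition had 0 higher at 3-fold. Signal over background limits the dimmest probes. The 5′ probes of Tnc and Thbs1 carried errors of 0.41 and 0.45.

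No paired analysis was possible because each group has 1 array.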
